A study of Canis lupus familiaris with 16 samples.

Results

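VWA5A (ENSCAFG00000011356), named for a von Willebrand factor type A domain, is 1 of the 24580 Ensembl genes of the deposited table, and 1 of 41 identifiers that the study listed as higher in meningioma. It was chosen because it stood in that list, so the difference between the groups is described below and was not tested. RNAseq was performed on 13 spontaneous meningiomas of pet dogs and on normal leptomeninges of 3 healthy research beagles. The labels do not state whether any of the dogs had been treated. Most tumors were formalin-fixed and paraffin-embedded, and a pair of them was flash-frozen according to the study's methods, as were all controls. Tumors of grade I (transitional or meningothelial) and grade II (atypical) were included, but the table numbers its libraries only within each group, and the labels do not tie a number to a case, so no library was assigned here to a grade, a subtype or a preservation method. Fixation and RNA extraction differed between most tumors and the controls, and their part in any difference was not tested. The breed of the dogs differed between the groups as well and cannot be told apart from the tumor.

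The VWA5A protein is an intracellular protein with a VIT domain and a von Willebrand factor type A domain, a fold that in other proteins mediates contacts between proteins, as in integrins and collagens. The gene was first described, under the names BCSC-1 and LOH11CR2A, as a candidate tumor suppressor from an interval on the long arm of human chromosome 11 that is often lost in breast and other carcinomas. Meningiomas arise from arachnoid cap cells of the meninges, so the leptomeninges are the tissue that is nearest in origin to the tumor, although they also hold vessels, fibroblasts and other cells.

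Depth, as fragments assigned to genes, was 2138741 to 7358925 for the tumor libraries (median 4095984) and 2269204 to 7054614 for the controls. Meningioma libraries 2 and 12 stood apart from all other libraries on component 3 of a principal components analysis. PDPN, which is expressed by arachnoid cells, was the only arachnoid marker with an identifier. It was present in every library, with 44.1 to 478.1 FPKM in the meningiomas and 16.9 to 44.6 FPKM in the controls.

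VWA5A was an abundant transcript in every library and was about 4 times higher on average in the meningiomas than in the controls. The mean level was 217.1 ± 93.5 FPKM (SD, n = 13) for the tumors and 55.5 ± 6.14 FPKM (SD, n = 3) for the controls, where FPKM are scaled fragments per unit of transcript length. The ratio of these means was 3.91. Of the 13 meningioma libraries, 12 lay above all 3 controls, and in 1, library 6, the level was that of normal meninges. Among all 14345 genes tested, 5.0% had at least 12 meningioma libraries above all controls, and since VWA5A was listed for this difference nothing is read from the count.

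The controls had 49.7 FPKM in library 2, 54.7 FPKM in library 0 and 62.0 FPKM in library 1, from 523, 875 and 345 fragments on the gene. The highest control exceeded the lowest by 1.25 times. Meningioma library 6 had 61.7 FPKM from 536 fragments, which lies inside the range of the controls. With fragments divided by the library total alone and given per 1000000 (CPM), library 6 had 153.9 CPM and so lay just above control library 1 with 152.0 CPM. The exact 95% Poisson interval of library 6 (56.6 to 67.2 FPKM) overlapped those of control libraries 0 and 1. These intervals cover counting error only.

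Above this level the meningiomas formed a series of steps. Libraries 7 and 3 had 129.4 and 129.6 FPKM, and library 12 had 151.6 FPKM. Libraries 8, 11, 1, 4 and 5 followed with 182.6, 188.5, 201.8, 209.6 and 213.2 FPKM. The highest levels were 335.3 FPKM in library 2, 336.9 in library 9, 339.3 in library 10 and 342.1 in library 0. These 4 libraries were alike within counting error, with 2763, 2712, 1657 and 5066 fragments on the gene, and each had between 6.04 and 6.17 times the control mean. The step from library 5 to library 2 was 1.57 times and the step from the highest control to library 7 was 2.09 times. When the 16 libraries were ordered by level, the intervals of 11 of the 15 neighbouring pairs overlapped. The pairs that were separated beyond counting error were control library 1 and meningioma library 7, libraries 3 and 12, libraries 12 and 8, and libraries 5 and 2.

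**Figure D1:**
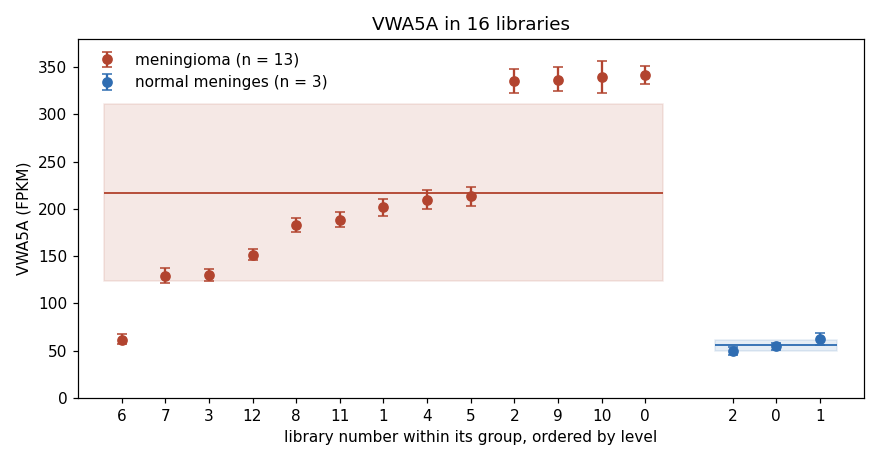
VWA5A in FPKM in each of the 13 meningioma libraries (red) and 3 control libraries (blue), ordered by level within the group, with exact 95% Poisson intervals of the fragment counts as bars and the mean ± 1 SD of the group as line and band. Meningioma library 6 (61.7 FPKM) sits among the controls, 8 libraries lie between 129.4 and 213.2 FPKM, and 4 lie between 335.3 and 342.1 FPKM.

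In 12 of the 13 meningiomas the level was at least 2 times the control mean, in 9 at least 3 times and in 4 at least 5 times. The place of VWA5A among all genes of a library shifted with it. In the controls, 1087 to 1637 genes had a higher FPKM than VWA5A, against 1063 in meningioma library 6. In the 12 meningiomas other than library 6, between 146 and 588 genes had a higher FPKM.

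In the edgeR fit over all tested genes, the log2 fold change of VWA5A was 1.97 with a standard error of 0.44. With each library left out in turn it lay between 1.89 and 2.06, the latter without control library 1, and it was also 2.06 without meningioma library 6. Without meningioma libraries 2 and 12 it was 1.94. Over all genes in the fit the median was 0.06.

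Spread between libraries was not chosen by the rule and was compared with that of other genes as a description. On the scale of log2 CPM after TMM scaling of the libraries, which is used from here on, the SD of VWA5A was 0.71 between the 13 meningiomas and 0.17 between the 3 controls. The median SD of all tested genes was 0.60 and 0.31. Among the 500 genes nearest to VWA5A in mean level in the meningiomas, the median SD was 0.53, and 74.4% had a smaller SD than VWA5A. In the controls, where these 500 genes were not matched to VWA5A in level, 37.8% had a smaller SD than VWA5A. Each SD there rests on 3 libraries. The highest meningioma exceeded the lowest by 5.54 times. Library 6 held the lowest value. Without it, as a comparison added after its value had been seen, the SD of VWA5A was 0.53 and the range was 2.64 times. The median SD of the 500 genes nearest in level was then 0.52, and 51.6% of these had a smaller SD. Library 6 was chosen as the lowest for VWA5A and not as an extreme of these 500 genes. The comparison is thus tilted toward a smaller SD of VWA5A, and no conclusion is drawn from it.

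Among the 41 identifiers listed as higher in meningioma, VWA5A had one of the smaller fold changes and one of the smaller spreads. Its log2 fold change ranked 35th from the highest, where the median was 2.60. Its SD between meningiomas ranked 5th from the lowest, where the median was 1.31. By mean FPKM it ranked 6th in the meningiomas and 4th in the controls. At least 12 meningioma libraries lay above all controls in 19 of the 41 genes. These genes share the control libraries and were all listed for this difference.

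MYC, the proto-oncogene, had a fold change close to that of VWA5A. Its log2 fold change was 1.97 with a standard error of 0.50. MYC ran from 13.7 to 110.6 FPKM in the meningiomas, with 12 libraries above all controls, and its SD on the log2 scale was 0.83. Like VWA5A, MYC was lowest in library 6 and highest in library 0, and its value in library 6 lay within the controls, which ran from 13.2 to 24.8 FPKM.

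**Figure D2:**
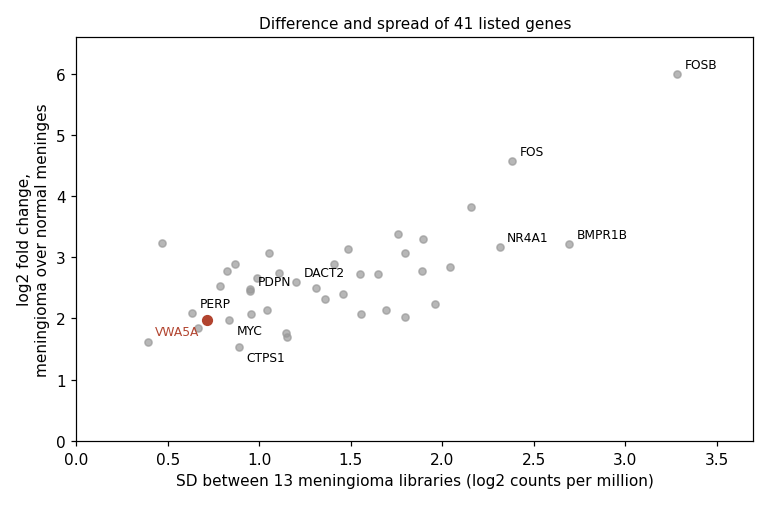
The log2 fold change of meningioma over normal meninges against the SD of log2 CPM between the 13 meningioma libraries, for the 41 identifiers that the study listed as higher (1 point each, VWA5A in red). VWA5A lies at an SD of 0.71 and a log2 fold change of 1.97, near MYC (0.83 and 1.97).

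The list of growth-restraint genes contained 8 genes whose products hold back growth signals or take part in cell death or differentiation. All 8 come from the study's own lists, so their counts are not independent evidence. Adjusted p-values (edgeR, Benjamini-Hochberg) were under 0.05 for 2 that were higher and 4 that were lower in the meningiomas, against 1.31% and 3.55% of all tested genes. The median log2 fold change of the 8 genes was -0.12. Without control library 0, 3 of the 8 were called in place of 6, and without control library 2, 4 were. The higher pair was PERP, a p53 target of desmosomes and apoptosis (log2 fold change 2.09), and DACT2, an antagonist of Dishevelled in WNT signaling (2.60). The lower genes were the secreted WNT antagonists SFRP1 (-3.08) and FRZB (-3.31), PDGFRL, a receptor-like relative of the PDGF receptors (-2.48), and PIK3R1, a regulatory subunit of phosphoinositide 3-kinase (-2.32). The nuclear receptor NR4A1 (3.17, standard error 1.65) and ZFP36, which promotes decay of messenger RNAs (3.13, standard error 1.00), did not pass. VWA5A was more abundant than all 8 in the meningiomas, where the highest of their means was 67.7 FPKM (PERP).

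A von Willebrand factor type A domain is also present in the products of COL14A1, a fibril-associated collagen, and CACNA2D2, an auxiliary subunit of calcium channels. Both were called lower in the meningiomas, with log2 fold changes of -4.13 and -2.52, against 3.55% of all tested genes. Both come from the study's list of lower genes, so their calls are not independent evidence. COL14A1 had 23.4 to 51.1 FPKM in the controls and 0.0594 to 7.25 FPKM in the meningiomas, with its highest value in library 6, where VWA5A was lowest. CACNA2D2 had 12.7 to 14.4 FPKM in the controls and 0.837 to 3.73 FPKM in the meningiomas.

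ESAM, MCAM and ETS1 lie, like VWA5A, on the long arm of human chromosome 11. In the RefSeq annotation of the dog assembly UU_Cfam_GSD_1.0, a build other than that of the table that served for gene order alone, they lie with VWA5A on chromosome 5. VWA5A stands there inside a cluster of olfactory receptor genes. Of the 20 nearest protein-coding genes, 10 on each side, 15 have olfactory receptor symbols and 5 have no assigned symbol. The nearest listed genes were ESAM, an endothelial adhesion molecule, with 32 protein-coding genes between it and VWA5A, and MCAM, a melanoma and vascular adhesion molecule, with 46 on the other side. ETS1, a transcription factor of endothelial and lymphoid cells, was separated by 67. In contrast to VWA5A, all 3 were called lower in the meningiomas, with log2 fold changes of -2.64, -3.06 and -1.52, and no meningioma library reached the lowest control, which was so in 3.65% of all tested genes. They too were taken from the study's list of lower genes. The genes that separate them from VWA5A have no symbol paired with their identifier and are not reported.

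**Figure D3:**
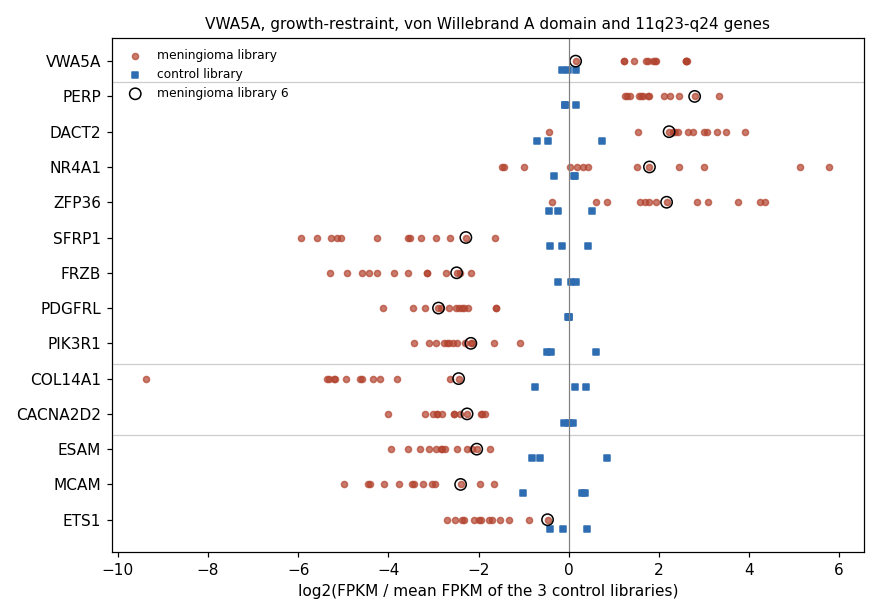
FPKM of each library relative to the mean of the 3 controls, on a log2 axis, for VWA5A, the 8 growth-restraint genes, the 2 genes with a von Willebrand A domain and the 3 genes of the human chromosome 11 interval (red circles, 13 meningioma libraries, and blue squares, 3 control libraries, with library 6 ringed in black). VWA5A is near 0 in library 6 and between 1.22 and 2.62 in the other 12, and every meningioma value of the last 5 genes is below 0.

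Library 6 was therefore described further, after its value had been seen. It had 3482951 fragments on genes, within the range of the other libraries. On component 1 of the principal components it had a score of 14.8, the nearest of the meningiomas to the controls (61.8 to 73.9). Of the 41 genes listed as higher, 24 exceeded every control in it, whereas in the other 12 meningiomas 29 to 39 did. It was the lowest meningioma in 12 of the 41, among them VWA5A, MYC and CTPS1, and the highest in 23 of the 83 genes listed as lower. Other libraries came close in these counts, since library 7 was the highest in 21 of the 83, and libraries 12 and 2 were the lowest in 9 and 8 of the 41. PERP was not low in it, with 111.1 FPKM, the 12th of 13 values from the lowest.

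Markers of vessels differed between the groups. All 12 endothelial markers and all 5 mural markers with an identifier were called lower in the meningiomas, against 3.55% of all tested genes. All of these markers come from the study's list of lower genes, so the counts are largely set by that choice. The summed FPKM of the endothelial markers was 515.1 to 849.3 in the controls and 47.4 to 202.8 in the meningiomas, and none of the markers was at 0 in any library. Library 6 had a sum of 167.8, exceeded among the meningiomas by library 7 (202.8), and library 7 was also among the lowest in VWA5A. The third highest sum was 159.0 in library 2, whose VWA5A was among the 4 highest, so the order of the sums did not follow that of VWA5A throughout. The mural sum was 116.0 to 272.5 in the controls, 12.7 to 48.2 in the meningiomas and 32.9 in library 6. In bulk tissue, fewer cells of a type and less RNA per cell cannot be told apart, and the part of vessel cells in the level of VWA5A was not tested. None of the 5 immediate-early genes was called by edgeR. Of these, 4 had an unadjusted p under 0.05 in the edgeR test, as did 2894 of all 14345 genes tested. DESeq2 called 4, against 662 higher and 702 lower genes over the whole fit. All 5 come from the study's list of higher genes, so these counts too are largely set by that choice. The sums of the 5 genes were 33.2 to 55.7 FPKM in the controls and 32.8 to 1872 FPKM in the meningiomas.

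To ask whether VWA5A varied with other measures among the tumors, 8 relations over the 13 meningioma libraries were computed on log2 CPM, with two-sided permutation tests and Benjamini-Hochberg adjustment over the 8. None passed an adjusted p of 0.05, and 1 of the 8 Pearson correlations had an unadjusted p under 0.05. The largest was with MYC (Pearson r = 0.708, permutation p = 0.00961, adjusted p = 0.0769). Spearman's rho was 0.473 (permutation p = 0.107, adjusted p = 0.281). Without the 2 libraries farthest from the median of MYC, one of which is library 6, r was 0.414. For PECAM1, an adhesion molecule of endothelial cells, r was -0.512 (permutation p = 0.0741, adjusted p = 0.297) and rho was -0.462 (permutation p = 0.115, adjusted p = 0.281). This relation rested on the extreme libraries, with an r of -0.062 without the 2 farthest. It was -0.667 without libraries 2 and 12 (adjusted p = 0.108, permutation test) and between -0.642 and -0.345 with 1 library left out.

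PERP had an r of -0.432 with VWA5A (permutation p = 0.143, adjusted p = 0.381) and a rho of -0.379 (permutation p = 0.202, adjusted p = 0.318), and r was -0.336 without the 2 farthest libraries. For PDPN r was 0.318 (permutation p = 0.290, adjusted p = 0.570) and rho was 0.434 (permutation p = 0.141, adjusted p = 0.281), and r was 0.042 without the 2 farthest. The 4 remaining measures were FOS, EGR1, MYH11 and the library total, with r of 0.168, 0.281, -0.170 and -0.083. Their adjusted p-values from the permutation test of r lay between 0.570 and 0.787. Their rho were 0.346, 0.434, -0.324 and -0.060, with adjusted p-values between 0.281 and 0.847. Depth, as the library total, thus showed no detectable relation with VWA5A. Without the 2 libraries farthest from the median of each measure, r was 0.229 for FOS, 0.157 for EGR1, -0.286 for MYH11 and -0.057 for the library total.

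As a description, with no test, the 123 other listed genes were ranked by their Spearman rho with VWA5A over the 13 meningiomas. The most alike was CTPS1, the enzyme that makes CTP from UTP (rho = 0.615), followed by NR4A1 (0.538), LEPREL2, a collagen prolyl hydroxylase (0.533), ZC2HC1C (0.505) and MYC (0.473). Over all tested genes the median rho was -0.011 and the range ran from -0.901 to 0.879, and 1.24% of them had a higher rho than CTPS1. CTPS1 had 9.19 FPKM in library 6, below the controls (20.1 to 23.2 FPKM), and 115.0, 78.8, 67.7 and 84.4 FPKM in libraries 2, 9, 10 and 0, where VWA5A was highest. In FPKM these 4 values of CTPS1 were its 4 highest, with libraries 11 and 12 close below at 67.1 and 67.0 FPKM. On log2 CPM they were not, since library 10 (7.53) lay below libraries 11 and 12 (7.55 each). Without meningioma libraries 2 and 12, rho was 0.609 for CTPS1, 0.364 for NR4A1, 0.391 for LEPREL2, 0.318 for ZC2HC1C and 0.527 for MYC.

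The least alike were FLT1 (rho = -0.720), COL14A1 (-0.687) and TEK (-0.538). FLT1 is a VEGF receptor and TEK the angiopoietin receptor, both of endothelial cells. FLT1 had 3.63 and 3.98 FPKM in libraries 9 and 10, which had high VWA5A, and 17.8 FPKM, its highest meningioma value, in library 6. In libraries 0 and 2, which also had high VWA5A, FLT1 was 6.09 and 6.25 FPKM, near its meningioma median of 6.21 FPKM. The controls had 46.5 to 91.6 FPKM of FLT1. TEK was lowest in library 10 (3.71 FPKM) and highest in library 6 (20.7 FPKM). Without libraries 2 and 12 the rho were -0.791 for FLT1, -0.745 for COL14A1 and -0.718 for TEK. These genes were picked here for their rho, and single libraries departed from it. TEK was 10.8 FPKM in library 2, above its meningioma median of 9.07 FPKM. The vessel genes named above were not low in every library with high VWA5A. ESAM had 4.25 and 4.53 FPKM in libraries 9 and 10 (median 2.89), ETS1 had 19.2 and 16.6 FPKM there (median 12.3), and MCAM was highest in library 2 with 24.8 FPKM.

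**Figure D4:**
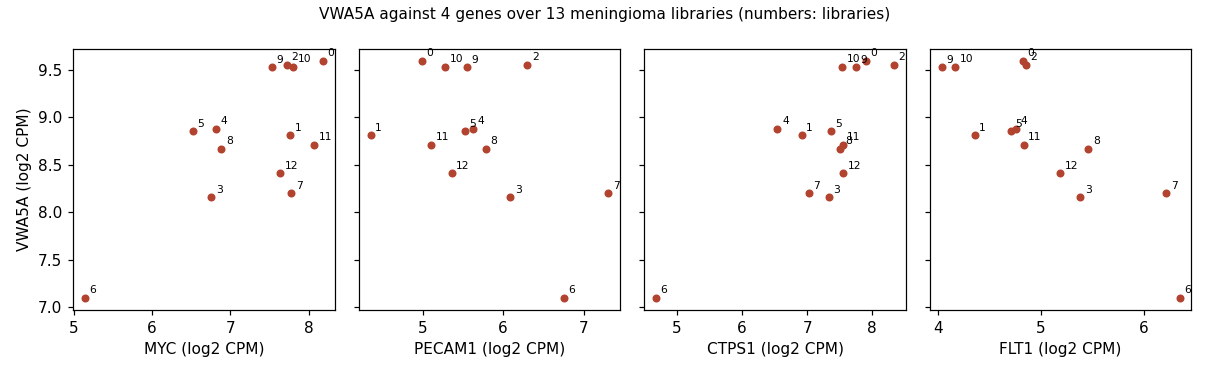
VWA5A against MYC, PECAM1, CTPS1 and FLT1 in the 13 meningioma libraries, each axis in log2 CPM, with the library number beside each point. Library 6 lies at the low end of VWA5A in every panel, with the lowest MYC and CTPS1 and the highest FLT1, and the r of 0.708 with MYC falls to 0.414 without the 2 libraries farthest from the median of MYC.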

How the data were processed

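RNA was depleted of ribosomal RNA and sequenced from directional libraries. Per the labels and the study's methods, the authors trimmed reads with cutadapt 1.8, discarded those matching ribosomal or small RNAs, aligned to CanFam3 with TopHat2 2.0.13 and ran Cuffdiff 2.2.1. The authors deposited estimated counts of fragments per gene and library, and FPKM, computed by the authors from fragments scaled by library and divided by transcript length. Of 393280 estimated counts, 1364 were not whole, and counts were rounded here. Conditions C and N of the table were taken as meningioma and normal meninges.

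The 14345 genes that reached 10 fragments in 3 or more libraries were fitted in edgeR 4.0.16 (R 4.3.3, TMM, quasi-likelihood test, Benjamini-Hochberg). A standard error is the fitted log2 difference over the square root of F. Alternatives were DESeq2 1.42.0, other scalings and filters, limma 3.58.1 on log2(FPKM + 1) and log2(FPKM + 0.1), and libraries left out. Permutation tests used 100000 resamples (numpy 2.4.6, scipy 1.17.1). Each test was tested on simulated data. By the study's case list each library comes from a separate dog.

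VWA5A, the lists and the 8 relations were chosen with earlier results of these data known. Genes named are VWA5A, the members of the lists and relations, the 5 most and 3 least like VWA5A, its nearest listed neighbours, and MYC. Some genes under this rule are not reported here, and the list and the relations were computed without them. Symbols come from the study's gene lists (124 identifiers), so markers outside them were not used. No sequence of VWA5A was analysed here.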

Additional observations from a re-analysis of the deposited data

How the results depend on the processing

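The log2 fold change of VWA5A lay between 1.81 and 2.03 over 9 other settings. It lay between 1.89 and 2.06 over 16 fits that left out 1 library each. The standard error in the main fit was 0.44. Without library 6, chosen after seeing the data, the SD of VWA5A between meningiomas was 0.53 in place of 0.71. The number of meningioma libraries above all controls was 12 in FPKM and in TMM-scaled CPM, and 13 in fragments over the library total. Counts of called genes depended on the setting and on single controls. The 188 higher and 509 lower genes became 109 and 643 with library totals only, 662 and 702 with DESeq2, and 354 and 682 without meningioma libraries 2 and 12. With 1 library left out, the higher genes numbered 12 to 316 and the lower genes 157 to 615. The lowest counts were without control library 2, those without control library 0 were 37 and 208, those without control library 1 were 43 and 307, and the most higher genes were found without meningioma library 6. Called growth-restraint genes numbered 3 to 6 with 1 library left out. Of the relations, that with MYC had an r of 0.369 to 0.787 with 1 library left out, and passed only without library 7 (adjusted p = 0.0364, permutation test). For the library total, r was -0.318 to 0.156, positive without library 10. Of the 5 genes most like VWA5A, 2 remained with Pearson's r and 3 with FPKM. The cause of these changes was not tested. No paired analysis was possible, since the tumors came from pet dogs and the controls from research beagles.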
